A study of Mus musculus with 6 samples.

Results

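Several tumour suppressor genes lie close together in band 3p21 of the human genome, and in the mouse their orthologues are split between chromosomes 9 and 14. Of 5 such genes considered (Bap1, Pbrm1, Setd2, Rassf1 and Smarcc1), 3 had array probes carrying their name, namely Rassf1 and Smarcc1 on chromosome 9 and Bap1 on chromosome 14. Members were chosen by the gene name of each probe in the denser of the array designs used, and the results below rest on 20 probes of 220065 autosomal ones and on 3 of 24696 gene names tested. No probe was named Setd2 or Pbrm1, and those genes are described at the end from probes that the files describe as them without naming them.

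DNA of 5 mouse malignant mesotheliomas (ARF-128, ARF-129, ARF-104, ARF-112 and ARF-110) was set against DNA of C57BL/6J mice by array comparative genomic hybridisation, in which both DNAs compete for the same probes. The title of the series describes asbestos-induced mesotheliomas of Arf knock-out mice, and its design text speaks of primary tumour cells from 4 Arf (+/-) mice, so which of the 5 titles lies outside those 4 is not known. ARF-104 is labelled by its number alone, while the other tumours are labelled as primary malignant mesothelioma cells. ARF-110 was read on a sparser design, ARF-104, ARF-112 and ARF-129 on a denser one, and ARF-128 on both, its denser array being titled ARF-128PlusMinus with no explanation of the addition in the sources used here. Animal ages and the strain background of the tumours are not given in the sources used here, and all 5 tumours form a single group, so each value is a comparison with C57BL/6J DNA. Cells of the tumour and any normal cells in the sample contribute to the same ratio.

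Bap1 is a nuclear deubiquitinase that acts on histone H2A and is often inactivated in human mesothelioma. Pbrm1 and Smarcc1 are subunits of SWI/SNF complexes, which move nucleosomes, and Setd2 is the methyltransferase that trimethylates lysine 36 of histone H3. Rassf1 is a Ras-association protein that binds the Mst kinases of the Hippo pathway and is often silenced in human tumours. Deletions of human 3p21 can remove these genes together.

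Values are log2 ratios of tumour over C57BL/6J signal. A loss of 1 copy in every diploid cell would give -1, and positions are in the mouse build mm7. Probe noise, a robust SD per probe estimated from the differences between neighbouring probes, was 0.78 on the denser ARF-128 array, which stands apart as the noisiest. The other 5 arrays had 0.15 to 0.49. The sparser ARF-128 array had 0.43, and results of ARF-128 are therefore given from both. All 88 values of the member probes were well above background in both channels, with no outlier mark and no saturated spot.

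The Rassf1 probes span chr9:107285022-107291333, those of Smarcc1 chr9:109836365-109932163 and those of Bap1 chr14:28682988-28688827. There are 3, 15 and 2 of them, in that order, of which the sparser design holds 1, 2 and 1. The sparser design names 1 further probe Bap1, which the denser design names AK135350. It falls outside the naming rule, and its values were not examined. Strand and place in exon or intron are not stated in the files or labels. The following 4 probe sequences are shown because the results turn on how far single probes differ: the Rassf1 probe that lay near 0 in tumours without a chromosome 9 loss and was lowest in ARF-128, the Smarcc1 probes with the lowest and the highest mean over the 4 denser arrays, and the Bap1 probe that stayed nearer to 0.
Rassf1, chr9:107287358-107287416: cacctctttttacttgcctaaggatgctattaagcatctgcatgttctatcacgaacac
Smarcc1, lowest, chr9:109841943-109842002: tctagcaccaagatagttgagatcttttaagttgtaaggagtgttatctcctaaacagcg
Smarcc1, highest, chr9:109903935-109903994: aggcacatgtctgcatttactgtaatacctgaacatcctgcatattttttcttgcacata
Bap1, chr14:28682988-28683047: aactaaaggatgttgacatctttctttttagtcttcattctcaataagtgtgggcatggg
The DNA was cut with AluI (AGCT) and RsaI (GTAC) before labelling, per the labels' protocols. Neither site occurs in any of the 20 member probes, so no letter is set in capitals, and 77 of 220065 autosomal probes (0.035%) hold one. The member probes had 31.7% to 40.7% G and C, with a median of 36.7%, the median of all autosomal probes.

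The chromosome 9 genes were lost with a large block in ARF-128 and ARF-129, and the chromosome 14 gene lay in a shallow loss in ARF-112. By the segment calls described next no tumour had both, but Bap1 was called in ARF-112 alone. The own probes of Bap1 were lowest in ARF-128, at -1.08. Whether these losses avoid each other was not tested. Chromosomes were divided into segments of like ratio, and any segment averaging -0.25 or less was called lost. Of the 15 gene-by-tumour pairs, 5 were called lost and 0 gained, against 9.17% of pairs lost and 14.2% gained over all gene names. Rassf1 and Smarcc1 lay in the same segment on every array, so their pairs repeat each other and are not separate observations. In ARF-128 Rassf1 and Smarcc1 were lost, where 1.86% of gene names were lost (1.87% on the sparser array), and in ARF-129 the same genes, where 28.2% were. In ARF-112 Bap1 was lost, where 11.3% of gene names were. ARF-104 and ARF-110 had no member in a called segment, and 0.527% and 2.65% of gene names were lost there. Each of the 3 genes was thus lost in at least 1 tumour, as 37.9% of gene names measured in all 5 were. Background correction by normexp ended all 5 calls, with segment means over Rassf1 and Smarcc1 of -0.24 in ARF-128 and -0.07 in ARF-129, although the sparser ARF-128 array kept -0.71. At a threshold of -0.4 the ARF-128 pairs were called and the other 3 were not. A segmentation penalty of 3 log n in place of 5 log n ended the Bap1 call alone, with a segment mean of -0.21 in ARF-112.

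The loss of ARF-128 was a block of 36.2 Mb inside chromosome 9, from 82123751 to 118347323. Its 3452 probes averaged -0.82, or 56.6% of the reference signal, while the segments before and after it stood at -0.04 and -0.06. The sparser array placed the block from 81942149 to 118347323 at -0.85 over 668 probes, with -0.07 before it and 0.00 after it. The last probe inside the block was the same on both arrays, with the next one 5.7 kb on in the denser and 126.5 kb on in the sparser design. The first probes inside it lay 181.6 kb apart. On the 667 probes of the block that both arrays hold, the denser array averaged -0.86 and the sparser -0.85. The far edge falls within the probes of Itga9, an integrin subunit. The 8 Itga9 probes inside the block averaged -0.97 and the 30 beyond it -0.11 on the denser array, and 1 probe on each side stood at -0.46 and -0.13 on the sparser one. At the near edge, the last gene names were 4930486G11Rik on the denser and AK139836 on the sparser array.

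ARF-129 had a longer and shallower loss that ran to the last chromosome 9 probe. It began at 78570904, 3552.8 kb before that of ARF-128, and was read as a segment at -0.48 followed, from 105813347 to 123827707, by the segment over Rassf1 and Smarcc1 at -0.37. The gene name at the start of that segment, AK157081, rests on 1 probe, which stood at 0.21 in ARF-129. That level over the genes is 77.4% of the reference signal. In the 3 other tumours the segment over these genes stood at -0.07 (ARF-104), -0.04 (ARF-110) and 0.00 (ARF-112). All 459 gene names lost in ARF-128 were also lost in ARF-129, and 430 of them lie on chromosome 9. The other 29 are on chromosome 4. Among all gene names measured in all 5 tumours, 5.57% were lost in 2 or more, as Rassf1 and Smarcc1 were.

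**Figure D1:**
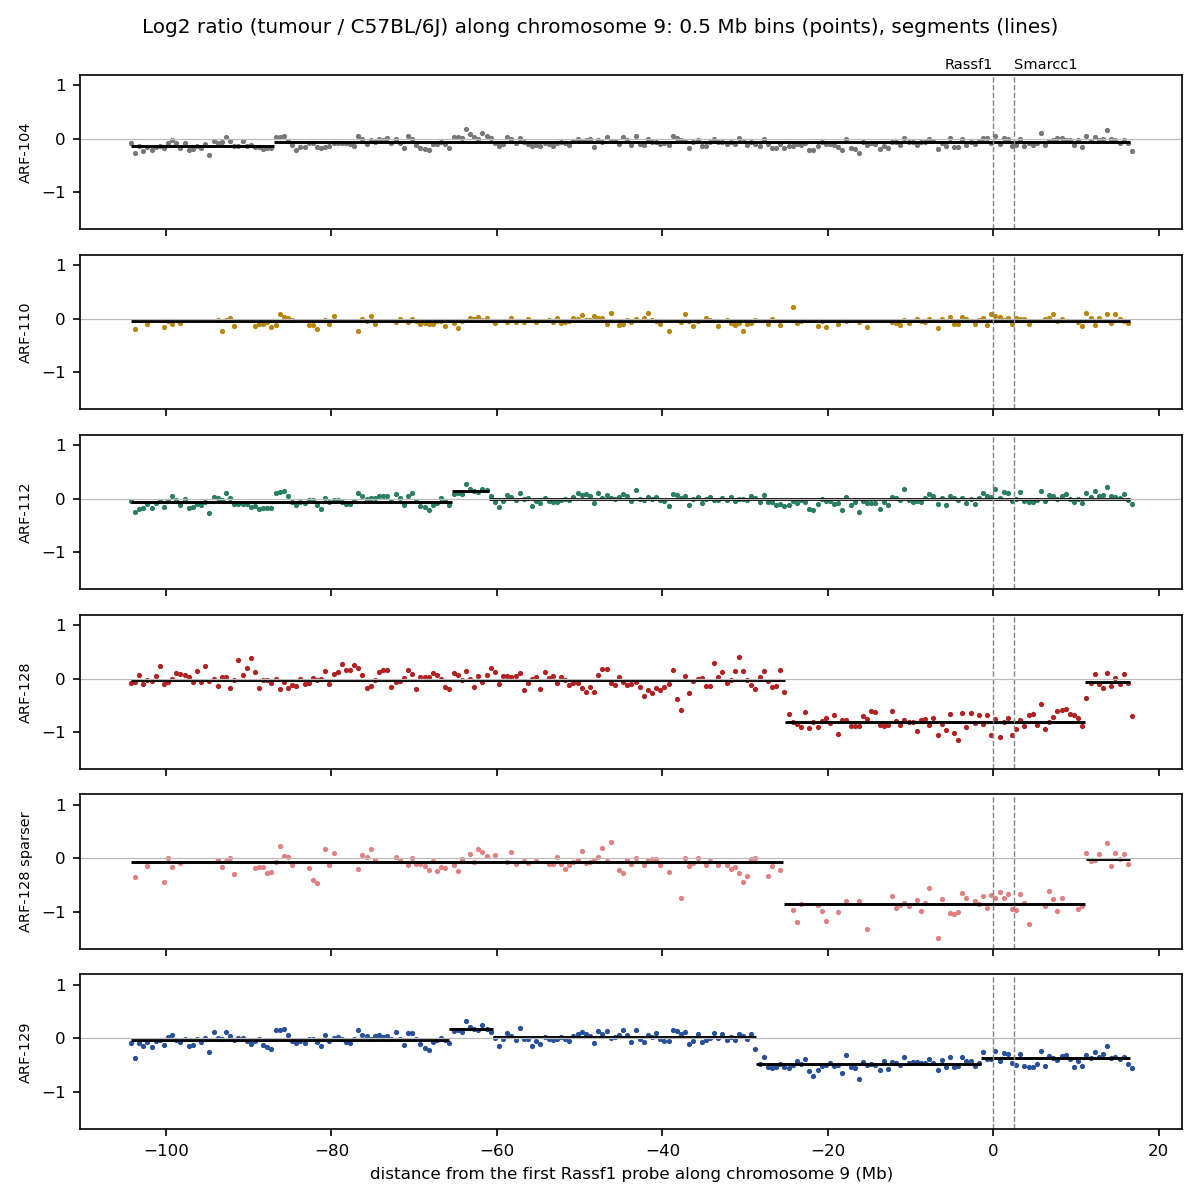
Log2 ratio of tumour over C57BL/6J along chromosome 9 by distance from the first Rassf1 probe, 1 row for each array; points are means of 0.5 Mb bins with 5 or more probes, black lines are segment means and dashed lines mark Rassf1 and Smarcc1. ARF-128 shows a block at -0.82 on the denser and -0.85 on the sparser array, ARF-129 stays low to the end of the chromosome, and the other 3 tumours stay near 0.

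Rassf1 was lowest in ARF-128 and next lowest in ARF-129. Its own probes averaged -1.55 in ARF-128 (-1.90 on the single probe of the sparser array), -0.86 in ARF-129, -0.38 in ARF-104, -0.32 in ARF-112 and 0.11 in ARF-110. ARF-110 was read by 1 probe and the others by 3. Over all gene names, 1.84% were as low as Rassf1 on the denser ARF-128 array and 0.08% on the sparser one, against 3.92% in ARF-129. The 3 probes differed among themselves. In ARF-128 they stood at -1.33, -1.93 and -1.39 from the first to the last. In ARF-129 they stood at -0.85, -0.27 and -1.46, so the middle probe was the highest there and the lowest in ARF-128. In ARF-104 and ARF-112, where chromosome 9 was not called, the middle probe was at 0.07 and 0.08, and the outer ones lay between -0.39 and -0.64.

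Smarcc1, read by the most probes, gave the same order of tumours. It averaged -1.22 ± 0.28 in ARF-128, -0.68 ± 0.17 in ARF-129, -0.26 ± 0.14 in ARF-104 and -0.17 ± 0.14 in ARF-112 (SE over 15 probes, which are not replicates of the tumour). The 2 probes of the sparser design stood at -1.01 and -0.80 in ARF-128 and at -0.02 and 0.06 in ARF-110. The same probes were read in each of these tumours, so these errors are not those of a difference between tumours. Differences of ARF-128 and ARF-129 from ARF-104 at the same probe are given below. The single probes ranged from -3.76 to 0.64 in ARF-128 and from -1.96 to 0.50 in ARF-129. In ARF-128 14 of the 15 were below 0, 13 were in ARF-129, and 10 were in each of ARF-104 and ARF-112.

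The same Smarcc1 probes tended to be low or high in the 4 tumours read on the denser design. The one with the lowest mean over them, whose sequence is given above, stood at -3.76 in ARF-128, -1.96 in ARF-129, -1.27 in ARF-104 and -0.88 in ARF-112. The one with the highest mean stood at 0.00, 0.50, 0.60 and 0.79 in the same tumours. Across the 15 probes the arrays correlated with r of 0.77 to 0.96, and with 0.52 to 0.79 across all autosomal probes, as a description of probes that share their reference DNA and sequence. Taking the difference between tumours at the same probe leaves such offsets out only where they have the same size on both arrays. The SD over the 15 probes was 1.09 in ARF-128 and 0.54 in ARF-104. How much of the offsets remains in the ARF-128 differences was not tested. At the same probe, ARF-129 was lower than ARF-104 at 15 of 15 Smarcc1 probes, by -0.43 ± 0.20 (SD over probes), and ARF-128 was lower than ARF-104 at 14 of 15, by -0.96 ± 0.68. The flanking probes gave -0.32 ± 0.27 and -0.81 ± 0.60 for the same differences. For Rassf1, 3 of 3 probes were lower in each, by -0.48 ± 0.30 for ARF-129 and -1.17 ± 0.72 for ARF-128, against -0.32 ± 0.31 and -0.88 ± 0.64 in the flank. Single Smarcc1 probes ranged from -2.49 to 0.25 in the difference of ARF-128 from ARF-104, so the own probes and the flank overlapped.

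**Figure D2:**
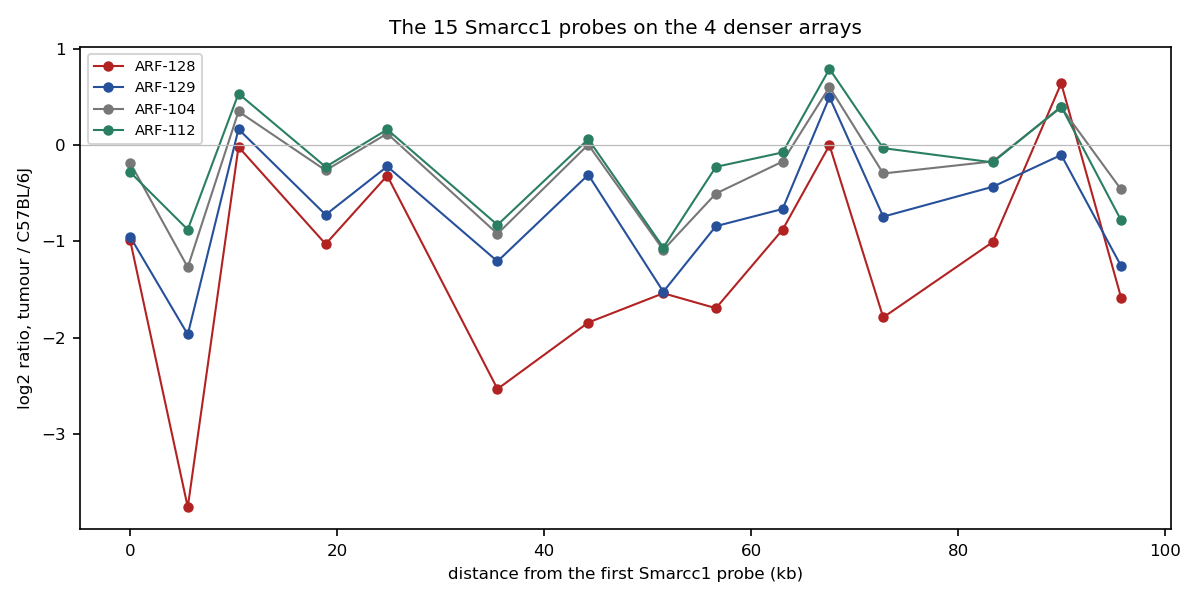
Log2 ratio of tumour over C57BL/6J at each of the 15 Smarcc1 probes by distance from the first of them, with 1 line for each tumour read on the denser design. The lines rise and dip at largely the same probes, and those of ARF-129 lie below those of ARF-104 and ARF-112 at all 15.

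Bap1 stood below 0 in all 5 tumours on its own probes, which was the case for 17.0% of gene names, and outside ARF-112 its neighbourhood stayed within 0.1 of 0 on the denser arrays and in ARF-110. Its probes averaged -1.08 in ARF-128 (-0.99 on the sparser array), -0.38 in ARF-104, -0.35 in ARF-129, -0.13 in ARF-112 and -0.06 in ARF-110. The low values came from 1 of the 2 probes. The second probe, at 28688770, stood at -1.95 in ARF-128 (-0.99 on the sparser array), -0.65 in ARF-104, -0.63 in ARF-129, -0.34 in ARF-112 and -0.06 in ARF-110. The first, shown above and missing from the sparser design, stood at -0.21, -0.11, -0.07 and 0.09 in ARF-128, ARF-104, ARF-129 and ARF-112. The flank of 1 Mb on each side averaged -0.02 in ARF-128 (-0.07 on the sparser array), and the segment there covered the whole chromosome at -0.03.

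In ARF-112 all of chromosome 14 was low, and Bap1 lay in its shallower part. The segment over Bap1 ran from 23694630 to 47087503, within the probes of DX574607, and averaged -0.29, which is 81.8% of the reference signal. The next segments, to the end of the chromosome, stood at -0.69, -0.90 and -0.74. The segment before it covered 24 probes at -1.40, and the same 24 probes averaged -1.23 in ARF-104. All 983 gene names tested on chromosome 14 were lost in ARF-112. The flank of Bap1 averaged -0.19 there and its own probes -0.13. In the other 4 tumours the segment over Bap1 lay between -0.08 and -0.03, and at -0.12 on the sparser ARF-128 array. It ended within Slc25a37, a mitochondrial iron carrier, in ARF-104 and ARF-129 and within Gcap14 in ARF-110. Slc25a37 was lower over the tumours by limma (-0.57, adjusted p = 0.0131). It lies about 35.4 Mb from Bap1. A separate low segment of 0.2 Mb began within it in ARF-104 (-0.95), ARF-110 (-1.25) and ARF-129 (-0.78), but not in ARF-112 or ARF-128. The own probes of Slc25a37 were nevertheless low in ARF-112 (-0.66) and ARF-128 (-0.62, and -0.69 on the sparser array).

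**Figure D3:**
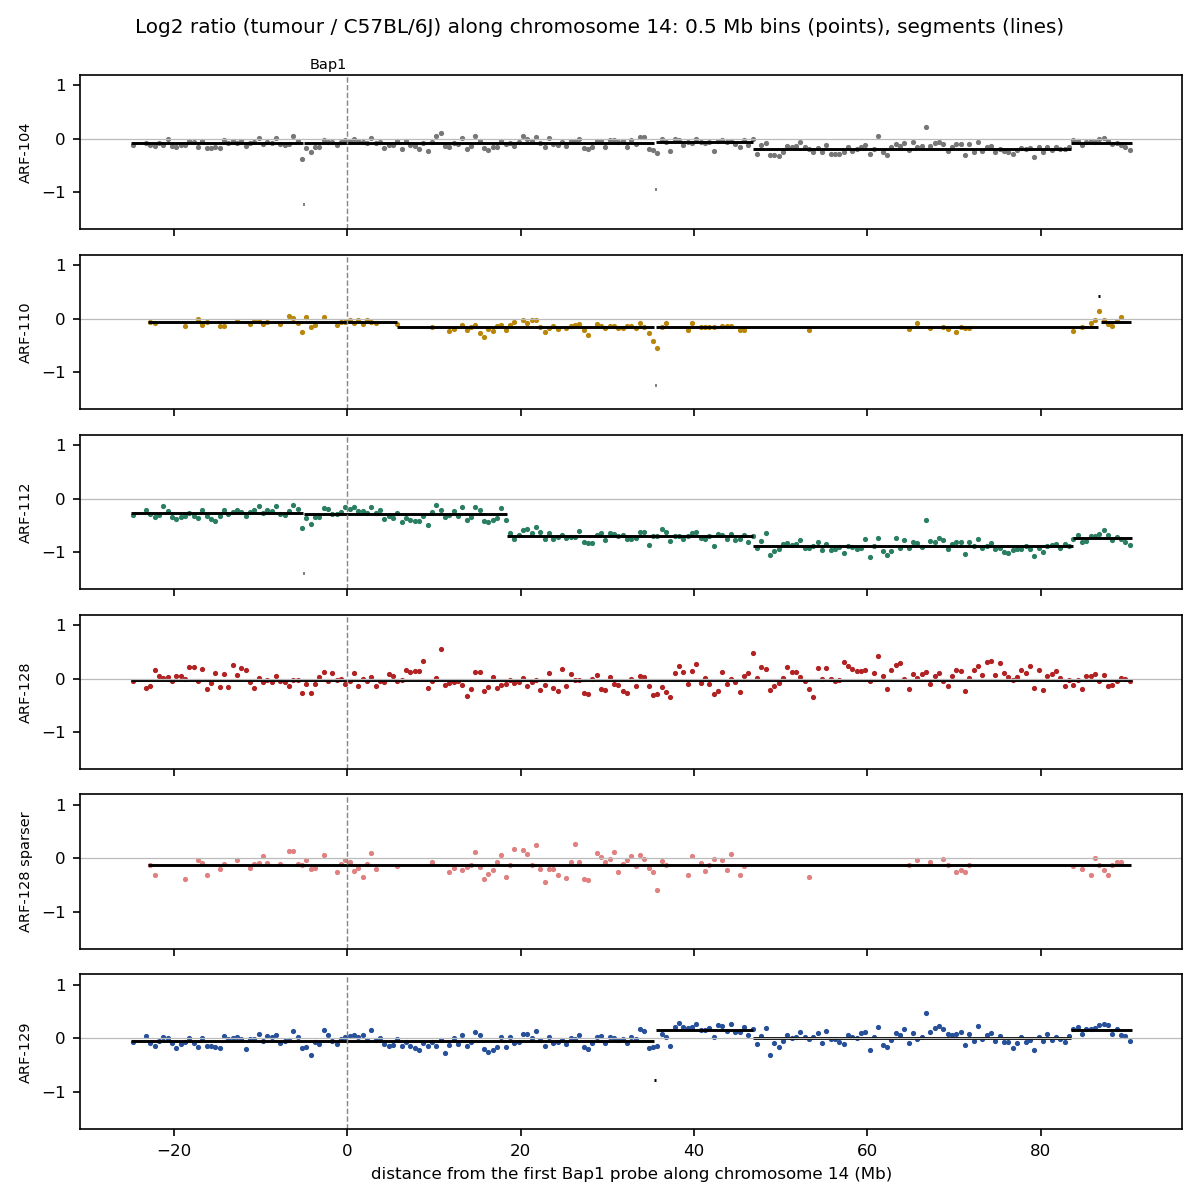
Log2 ratio of tumour over C57BL/6J along chromosome 14 by distance from the first Bap1 probe (dashed), 1 row for each array; points are means of 0.5 Mb bins with 5 or more probes and black lines are segment means. ARF-112 is low throughout, at -0.29 around Bap1 and between -0.69 and -0.90 further on, while the other tumours stay near 0 around Bap1.

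Over the 5 tumours, the own probes of Rassf1 averaged -0.60 ± 0.63, those of Smarcc1 -0.46 ± 0.50 and those of Bap1 -0.40 ± 0.41 (SD, n = 5). None of the 3 passed an adjusted p of 0.05 by limma over all gene names (adjusted p of 0.0787, 0.0913 and 0.0924), and all 3 had an unadjusted p under 0.05. In that fit 8.13% of gene names were lower and 9.40% higher, and 17.9% were lower at the unadjusted threshold. The median of the 3 means was -0.46, beside -0.01 over all gene names. The exact two-sided sign-flip permutation test gave p = 0.125 for Rassf1 and for Smarcc1 (below 0 in 4 of 5 tumours) and 0.0625 for Bap1 (5 of 5), the smallest that 5 tumours allow. On segment means no member had an unadjusted p under 0.05. With the sparser ARF-128 array in place of the denser one all 3 passed, with limma adjusted p of 0.0465 for Rassf1, 0.0443 for Smarcc1 and 0.0492 for Bap1, in a fit where 11.2% of gene names were lower. Over all 19 alternatives the adjusted p ran from 0.0260 to 0.301.

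The difference between a gene's own probes and its flank asks whether the gene was lower than its surroundings. For Rassf1 it was -0.65 in ARF-128 (-1.19 on the sparser array), -0.51 in ARF-129, -0.39 in ARF-112, -0.35 in ARF-104 and 0.08 in ARF-110. The flank itself averaged -0.91 in ARF-128, -0.35 in ARF-129, 0.07 in ARF-112, -0.03 in ARF-104 and 0.03 in ARF-110. For Smarcc1 the difference was -0.33 in ARF-128 (-0.08 on the sparser array), -0.28 in ARF-129, -0.21 in ARF-112, -0.18 in ARF-104 and 0.04 in ARF-110. For both genes it was negative in the 4 tumours read on the denser design, lost block or not, and positive in ARF-110. Bap1 differed most in ARF-128, at -1.07 (-0.92 on the sparser array), with -0.38 in ARF-129, -0.35 in ARF-104, 0.06 in ARF-112 and 0.00 in ARF-110.

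The mean difference was -0.36 ± 0.27 for Rassf1, -0.19 ± 0.14 for Smarcc1 and -0.35 ± 0.45 for Bap1 (SD, n = 5). By limma 0 of 3 passed (adjusted p of 0.0537, 0.0772 and 0.161), while 10.8% of gene names were lower than their flank and 11.1% higher. At an unadjusted p under 0.05, 2 of 3 were lower, beside 20.8% of gene names. Both chromosome 9 genes lay below their flank in 4 of 5 tumours, as 38.1% of gene names did in 4 or more. The exact sign-flip permutation p was 0.125, 0.125 and 0.25. Without ARF-110 both Rassf1 and Smarcc1 passed (-0.48 and -0.25, limma adjusted p of 0.0113 and 0.0224), in a fit where 16.2% of gene names were lower than their flank. Restricted to probes that both designs hold, the Smarcc1 difference turned to 0.08. When scan day was a random block, no member had an unadjusted p under 0.05 in this comparison. Scan days differed between arrays, with ARF-104, ARF-112 and ARF-129 on one day. Within that day the mean difference was -0.42 for Rassf1, -0.22 for Smarcc1 and -0.22 for Bap1. The part of probe offsets, array design and scan day in these differences was not tested.

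**Figure D4:**
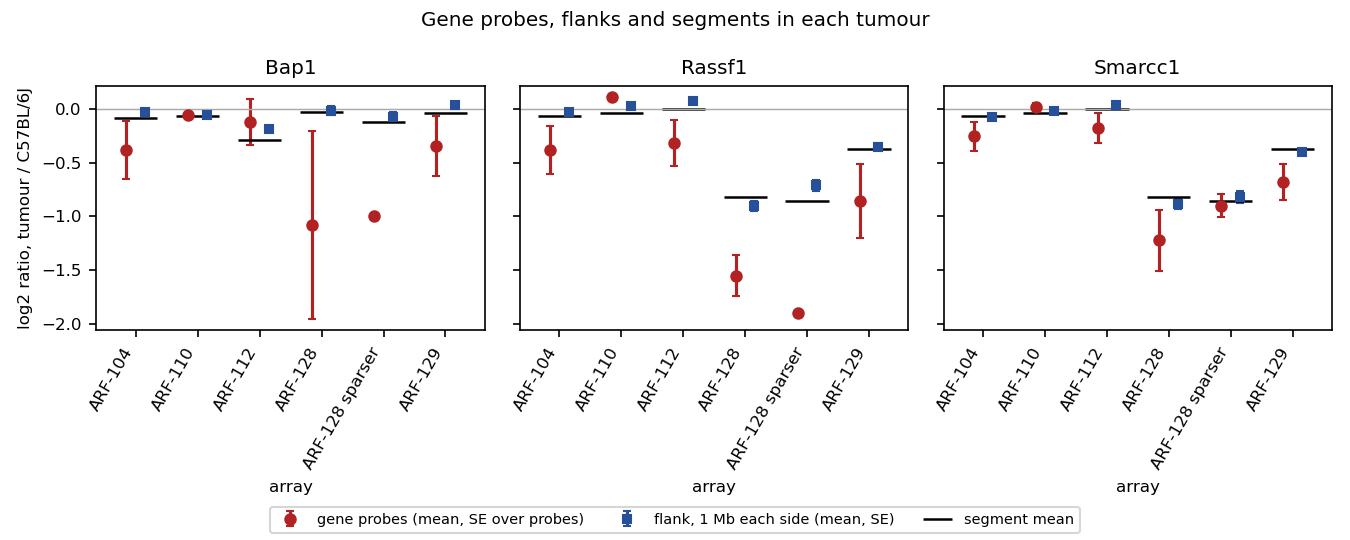
Log2 ratio of tumour over C57BL/6J for the own probes (circles, mean and SE over probes, no bar for 1 probe) and the flank of 1 Mb on each side (squares, mean and SE over probes) of Bap1, Rassf1 and Smarcc1 on each array, with segment means as black lines. Flank and segment are low together in ARF-128 and ARF-129 for Rassf1 and Smarcc1, while the low Bap1 probes in ARF-128 have a flank near 0.

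The nearest measured genes varied as single-probe values do. Beside Rassf1, Tusc2, another gene of the human 3p21 cluster, stood at -1.06 in ARF-128 (-1.22 on the sparser array) and -0.42 in ARF-129, and Zmynd10 at -1.53 (-0.42) and -0.25. In ARF-104 Tusc2 stood at -0.36 and Zmynd10 at 0.14. Beside Smarcc1, AK164859, 4.9 kb away and read by 1 probe, averaged -1.04 and was lower by limma (adjusted p = 0.0310). AK132659, 8.1 kb away on the other side, stood at 0.02 in ARF-128 and -0.64 in ARF-129. Neither was measured in ARF-110, so the mean and p-value of AK164859 rest on the other tumours. Beside Bap1, Phf7 on 4 probes averaged 0.09 and AK052631 on 1 probe -0.04, with 0.32 and 0.21 in ARF-128.

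Setd2 and Pbrm1 could be followed through probes whose description or accession points to them, a choice made after the naming rule had found none. Of 4 such probes for Setd2 (chr9:110297795-110313011), 2 are named BC059049 and described as that gene, and 2 carry an accession that RefSeq lists as its synonym. They averaged -0.996 in ARF-128 (-0.45 on the single probe of the sparser array), -0.49 in ARF-129, -0.19 in ARF-104, -0.07 in ARF-112 and 0.09 in ARF-110. Their flank averaged -0.91, -0.44, -0.09, 0.01 and -0.02 in the same tumours, and they lie in the same lost segments as Smarcc1. Over the 5 tumours all 4 probes averaged -0.33 ± 0.43, and -0.04 ± 0.08 against their flank (SD, n = 5), with exact sign-flip permutation p of 0.188 and 0.375. The 2 probes named BC059049, not measured in ARF-110, passed the fits over the other 4 tumours at -0.60 (limma adjusted p = 0.0440) and, against their flank, at -0.25 (0.0331). The 12 probes described as polybromo-1 (chr14:28451905-28513087) averaged 0.22 in ARF-128 (-0.03 on the sparser array), -0.03 in ARF-129, -0.10 in ARF-104, -0.23 in ARF-112 and -0.06 in ARF-110. In ARF-112 their flank stood at -0.19, within the same called segment as Bap1, and their mean over tumours was -0.04 ± 0.17 (SD, n = 5).

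Other genes of the human 3p21 region lay in the same blocks. Of 61 tested chromosome 9 neighbours, 61 were lost in ARF-129 and 57 in ARF-128, where Limd1, Lars2, Sacm1l and Cdcp1 lay outside it, and 0 were lost in the other 3 tumours. Their median own-probe value was -0.82 in ARF-128 (-0.74 on the sparser array) and -0.30 in ARF-129, against 0.12 in ARF-112, -0.04 in ARF-104 and 0.02 for ARF-110. Of 23 tested chromosome 14 neighbours, 23 were lost in ARF-112 and 0 in the other 4 tumours, with a median of -0.12 in ARF-112 and between -0.09 and 0.05 elsewhere. By limma 2 chromosome 9 neighbours were lower, Apeh (-0.70 ± 0.44, adjusted p = 0.0224), a peptidase, and Hyal3 (-0.71 ± 0.59, 0.0428), a hyaluronidase. The phosphatase Ppm1m was the 1 that was higher (0.47 ± 0.32, limma adjusted p = 0.0399). Over all gene names 8.13% were lower and 9.40% higher. Hyal3 and Ppm1m were each read by 1 probe. That of Ppm1m stood at 0.12 in ARF-128 and 0.53 in ARF-129, within the lost segments of these tumours. The median of the means was -0.25 over the chromosome 9 neighbours and -0.03 over the chromosome 14 neighbours, beside -0.01 over all gene names. Among the chromosome 14 neighbours the kinase Nek4 was lower (-0.39 ± 0.25, 0.0456) and 0 were higher (1 unadjusted). Mustn1 had the next largest mean (0.44 ± 0.36, 0.0576).

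Partners of the members are set beside the shares over all gene names. By limma 8.13% of those were lower and 9.40% higher, and 17.9% were lower unadjusted. Of 23 tested SWI/SNF subunits, 0 were lower by limma (0 unadjusted) and 3 higher: Smarca2, an ATPase of the complex (0.46 ± 0.20, adjusted p = 0.0222), Dpf2 (0.42 ± 0.14, 0.0222) and Bcl7c, read by 1 probe (0.91 ± 0.74, 0.0361). Smarca2 and Dpf2 lie on chromosome 19. Their segments were gained in 4 tumours, ARF-128, ARF-129, ARF-104 and ARF-110, where 8.71%, 22.1%, 15.9% and 13.7% of gene names were gained. In ARF-112 the segment over both stood at 0.246, just under the threshold of 0.25. Against their flanks Smarca2 and Dpf2 averaged -0.002 and -0.05. The segment over Bcl7c was gained in no tumour and was lost in ARF-129 at -0.35, where its probe stood at 0.63. In ARF-129, where Smarcc1 was lost, 9 of the 23 were lost and 7 gained, beside 28.2% and 22.1% of gene names. In ARF-128 0 were lost and 3 gained (Smarca2, Brd7 and Dpf2), beside 1.86% and 8.71%. Of 11 tested Bap1 partners 0 passed in either direction, with the largest means for Rnf2 (0.33 ± 0.48, limma adjusted p = 0.188) and Yy1 (-0.32 ± 0.25, 0.0805), and 2 were lower at an unadjusted p under 0.05. Asxl2, a cofactor of Bap1, lay in lost segments in ARF-110, ARF-112 and ARF-129. Of the 11 partners 2, 1 and 3 were lost in these tumours, beside 2.65%, 11.3% and 28.2% of gene names. In the same order Mbd6, Asxl1 and Ring1 lay in gained segments, 1 in each tumour. Of 11 tested genes listed for lysine 36 methylation, not all of which write, read or erase it, 0 passed (3 lower and 1 higher unadjusted). The largest means were those of Polr2a, a subunit of RNA polymerase II (-0.50 ± 0.41, limma adjusted p = 0.0516), and Ash1l (-0.34 ± 0.26, 0.0702). Of 17 Rassf and Mst pathway genes, Moap1, a Rassf1-binding protein, was lower (-0.52 ± 0.24, limma adjusted p = 0.0192) and 0 were higher (3 unadjusted), with the next largest mean for Rassf10 (0.40 ± 0.42, 0.0987). In ARF-112 3 of the 17 lay in lost segments (Lats2, Sav1 and Moap1) and 3 in gained ones (Rassf2, Stk3 and Stk4). In ARF-129 7 were lost, among them Sav1 and Moap1, and 2 were gained (Stk3 and Map1s). Of all gene names 11.3% were lost in ARF-112, and 28.2% were lost and 22.1% gained in ARF-129. Over all tumours 14.2% of gene-by-tumour pairs were gained. With scan day fitted as a random block, 0 genes of these lists passed by limma (15 lower and 8 higher unadjusted), and the 8 that had passed had adjusted p from 0.0716 to 0.167. Without ARF-112 or without ARF-129, 0 passed as well (23 and 8 lower, 9 and 11 higher unadjusted).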

How the data were processed

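Tumour DNA carried Cy5 and C57BL/6J DNA Cy3 on all 6 arrays, with no dye swap, per the labels. Per the file headers, the authors took each colour's processed intensity from the scans with Agilent's Feature Extraction, in versions 8.5.1.1, 9.1.3.1 and 9.5.3.1. The deposited log10 ratio of each spot, and the deposited value table, which holds log10 ratios for the sparser and log2 ratios for the denser design, served as alternatives. The build mm7 is stated in the header of 1 file, and its positions were used for all arrays through shared probe names.

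The log2 ratio of processed intensities was computed here, without control spots and spots marked as outliers. Repeats of a probe were averaged, and the autosomal median of an array was set to 0. The mean over a gene's own probes gave its value, and the flank was the mean of other probes within 1 Mb on either side. Segments of 5 or more probes came from PELT with a penalty of 5 log n and were called at 0.25 in either direction. Gene means and differences were tested against 0 with limma 3.58.1 (intercept, eBayes, Benjamini-Hochberg over 24696 gene names with a value in at least 4 tumours), so the spread of C57BL/6J DNA is not in the error. The scripts were tested on simulated data. The number of arrays limits the precision, and the labels' numbers were taken as separate animals, which the labels do not state, so the p-values measure the spread between these samples. The denser array stood for ARF-128 unless stated.

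Of 166 genes in 6 lists (neighbours of the human region on chromosomes 9 and 14, SWI/SNF subunits, Bap1 partners, lysine 36 methylation, Rassf and Mst genes), 146 were tested, 126 matched by symbol, 19 by accession and 1 by synonym to a GRCm38.p6 table used for names alone. Members and lists were chosen with earlier results of these data known. Named were every member, its nearest measured genes, the genes at those ends of its segments that lie inside chromosome 14 or bound a chromosome 9 loss, and of each list up to 4 genes with the largest means among those past adjusted p 0.05, or the 2 largest where fewer than 2 passed. Asxl1, Asxl2, Mbd6, Ring1, Brd7, Lats2, Sav1, Rassf2, Stk3, Stk4, Map1s, Limd1, Lars2, Sacm1l and Cdcp1 were named for their segment calls, once seen.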

Additional observations from a re-analysis of the deposited data

Results flagged for a closer look

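The segment over Bap1 in ARF-112 stood at -0.29, apart from the other 4 tumours, which lay between -0.08 and -0.03. The gap to the nearest of them was 0.80 of the whole range, above the 0.71 that Dixon's test allows for 5 samples. It was the 1 value marked in this way among 12 sets of 5 values examined (own probes, flank, difference and segment of 3 genes), and chance marks about 1 in 20. The own probes of Bap1 in the same tumour stood at -0.13 and its flank at -0.19. With a segmentation penalty of 3 log n the segment stood at -0.21.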

How the results depend on the processing

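No paired analysis was possible because all tumours form 1 group. For the own probes against 0, the 0 members past the limma threshold became 3 when ARF-128 came from its sparser array, 2 with probes on both designs, 1 with normexp, and 0 to 1 when each tumour was left out in turn. For the difference from the flank, the 0 became 1 with both ARF-128 arrays averaged, with normexp, the median of the probes, probes on both designs or a flank of 0.5 Mb, and 0 to 2 when each tumour was left out. Every member kept its negative sign under these alternatives except Smarcc1 against its flank on probes of both designs (0.079). The 5 lost pairs became 0 under normexp, 2 at a threshold of 0.4, and 3 to 5 when a tumour was left out (3 without ARF-128 and 3 without ARF-129). For the lists, 4 lower and 4 higher genes became 12 and 10 when ARF-128 came from its sparser array, 0 and 0 when scan day was a random block, and 0 to 10 and 0 to 9 when each tumour was left out. Over all gene names, 2007 lower and 2321 higher became 3101 and 3526 with both ARF-128 arrays averaged, 180 and 231 with the block, 698 lower under normexp, and 0 and 812 on segment means (1759 lower unadjusted). Left-out tumours gave 0 to 2641 and 0 to 3119, with 0 without ARF-129 (3127 and 3282 unadjusted by limma). Against the flank, 2674 and 2730 became 4212 and 4527 with both arrays averaged, 1687 and 1731 with genes measured in all 5 tumours, 0 and 0 with the block (2109 and 2155 unadjusted), and 0 to 4011 and 0 to 4290 with a tumour left out, with 0 without ARF-104 (3650 and 3710 unadjusted), ARF-112 (3653 and 3626) or ARF-129 (3496 and 3552). The cause of these shifts was not tested. ARF-110 and the sparser ARF-128 array read Bap1 and Rassf1 by 1 member probe each, so they carry no spread over probes.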
